A study of Mus musculus with 4 samples.

Results

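The genes described here are 40 genes of DNA replication and mitosis, chosen by name, of the 15654 genes that at least 1 of the 4 deposited plates lists. Of these genes, 16 act in S phase: the Mcm helicase and its loaders, the enzymes of nucleotide supply, and factors of newly replicated chromatin. The other 24 act in mitosis: kinases, cyclins and destruction factors, and proteins of the chromosome and spindle. All 40 had a row in the plates of BMDM with WBRT, BMDM without WBRT and microglia without WBRT. The plate of microglia with WBRT listed 35, and Cdc6, Ccnb1, Bub1, Bub1b and Cenpe were taken as not measured there.

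The plates hold myeloid cells sorted by fluorescence from the brains of mice with lung cancer brain metastases, 1 cell in a well, and each transcript was counted through a random molecular tag. The strain was Balb/C athymic nude, given in full as CAnN.Cg-Foxn1nu/Crl; such mice have no thymus and hence few T cells. The 4 groups are BMDM with WBRT, BMDM without WBRT, microglia with WBRT and microglia without WBRT, where BMDM are macrophages that come from the bone marrow and WBRT is whole brain radiation therapy, labelled as 5 fractions of 2 Gy with the term d3, whose starting point is not given. Each group is 1 plate, with no animals, ages or sexes named, so what differs below differs between libraries, with no replicate check and no test. Tumor stage is labelled not stratified for both plates with WBRT and small for both plates without it, so treatment, stage and plate cannot be told apart.

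A cell that divides passes from G1 through S phase, in which the Mcm ring opens the DNA and the replication machinery copies it, to mitosis, in which cyclin-dependent kinase activity drives the condensation and separation of the chromosomes. The genes of both steps are mostly silent in resting cells and are switched on in turn, the S phase genes by E2F factors and the mitotic genes later, with FoxM1 and B-Myb. Microglia renew themselves in the adult brain by division in place, whereas blood monocytes form from dividing precursors in the bone marrow and most have left the cell cycle when they enter a tissue. Pcna, the sliding clamp of DNA polymerases, has duties outside S phase too: it also serves DNA repair and is induced by p53. Slbp binds the messenger RNA of replication-dependent histones.

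After filtering, 262 wells of BMDM with WBRT, 234 of BMDM without WBRT, 151 of microglia with WBRT and 157 of microglia without WBRT were used, 804 in all, from plates of 384 wells. In the same order, these wells had 2513025, 1265842, 649107 and 874710 transcripts, and the median well had 8894, 4388, 2546 and 4789. The plate of microglia with WBRT stood apart, with a median of 30.6% of its counts from ERCC spike-in RNA, against 6.92% to 7.86% in the other plates, and a lower depth. In pooled level the marker lists ran with the sort labels, although the BMDM plates also held wells in which microglia genes outnumbered BMDM genes, as given below. A list of 14 microglia genes summed to 11534 CPM (counts scaled to a plate total of 1000000 endogenous transcripts) in microglia with WBRT and 10290 CPM in microglia without WBRT, against 3574 and 3763 CPM in BMDM with and without WBRT. A list of 15 BMDM genes summed to 4116 and 4510 CPM in BMDM with and without WBRT, against 274 and 249 CPM in the corresponding microglia plates. All 384 well names recur on every plate, and no kept wells of different plates held identical counts.

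The 40 genes together were highest in microglia without WBRT. Their summed level was 718 CPM in BMDM with WBRT (exact Poisson 95% interval 685 to 751), 911 CPM in BMDM without WBRT (859 to 965), 760 CPM in microglia with WBRT (694 to 830) and 1645 CPM in microglia without WBRT (1561 to 1732). The corresponding counts were 1803, 1153, 493 and 1439 transcripts. These intervals, like those on all folds and shares below, cover counting error only. Pcna and Slbp supplied a large part of the sum: without them it was 471 CPM in BMDM with WBRT and 697 CPM in BMDM without WBRT, and 402 CPM in microglia with WBRT against 1382 CPM in microglia without WBRT. The sums of microglia with WBRT hold 35 genes and those of the other plates 40. Over the 35 genes listed on both microglia plates, microglia without WBRT had 1578 CPM, and 1315 CPM without Pcna and Slbp.

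**Figure D1:**
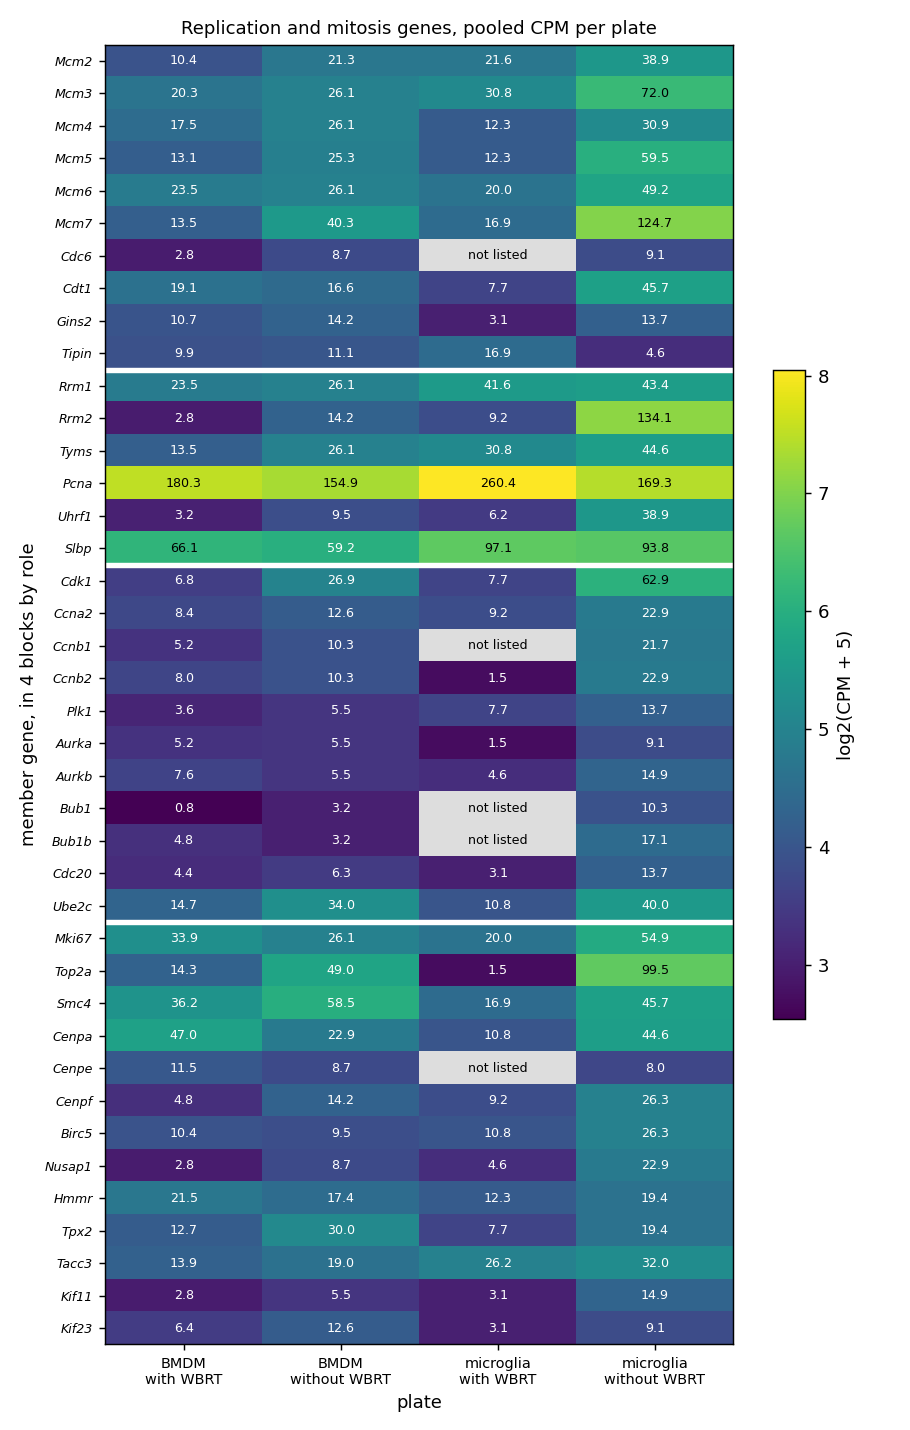
Pooled level of each of the 40 genes in the 4 plates, as CPM printed in each cell and log2(CPM + 5) in colour, with the 4 role groups separated by white lines and grey cells where the plate has no row for the gene. Microglia without WBRT reach 99.5 CPM for Top2a, 125 CPM for Mcm7 and 134 CPM for Rrm2, while microglia with WBRT show 1.54, 16.9 and 9.24 CPM for these genes.

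Among the 10 genes of the replication origin and helicase, the summed level was 141 CPM in BMDM with WBRT and 216 CPM in BMDM without WBRT, and 142 CPM in microglia with WBRT, which lacks Cdc6, against 448 CPM in microglia without WBRT, or 439 CPM over the 9 genes listed on both. Mcm7, a subunit of the Mcm ring, had 13.5 CPM in BMDM with WBRT, 40.3 CPM in BMDM without WBRT, 16.9 CPM in microglia with WBRT and 125 CPM in microglia without WBRT. It was seen in 24, 27, 7 and 42 wells of these plates, so the highest level was spread over many cells. Mcm7 shares its locus with Ap4m1 and 3 microRNAs in the RefSeq annotation, and the sources used here do not say whether counting used the strand. Mcm5, another subunit of the ring, had 13.1, 25.3, 12.3 and 59.5 CPM in the same order of plates. Cdt1, which loads the ring on origins, had 19.1 CPM in BMDM with WBRT, 16.6 CPM in BMDM without WBRT, 7.70 CPM in microglia with WBRT and 45.7 CPM in microglia without WBRT. Tipin, a fork protection factor, ran the other way in the microglia plates, with 16.9 CPM with WBRT against 4.57 CPM without, but on 11 and 4 counts.

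The 6 genes of nucleotide supply and S phase chromatin summed to 289 CPM in BMDM with WBRT, 290 CPM in BMDM without WBRT, 445 CPM in microglia with WBRT and 524 CPM in microglia without WBRT, and differed among themselves. Rrm2, the regulated subunit of ribonucleotide reductase, which makes the DNA building blocks, had 2.79 CPM in BMDM with WBRT, 14.2 CPM in BMDM without WBRT, 9.24 CPM in microglia with WBRT and 134 CPM in microglia without WBRT. Its transcripts were found in 4 of 262, 8 of 234, 3 of 151 and 44 of 157 wells. Rrm1, the other subunit of the enzyme, did not follow it in the microglia plates, with 41.6 CPM with WBRT and 43.4 CPM without. Uhrf1, which keeps DNA methylation on the copied strand, had 3.18, 9.48, 6.16 and 38.9 CPM in BMDM with WBRT, BMDM without WBRT, microglia with WBRT and microglia without WBRT. Pcna had 180, 155, 260 and 169 CPM in the same order, and Slbp had 66.1, 59.2, 97.1 and 93.8 CPM. Neither was higher in microglia without WBRT than in microglia with WBRT, unlike most of the other genes.

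The 11 mitotic kinases, cyclins and destruction factors summed to 69.3 CPM in BMDM with WBRT and 123 CPM in BMDM without WBRT, and to 46.2 CPM in microglia with WBRT, where 8 of them are listed, against 249 CPM in microglia without WBRT, or 200 CPM over these 8. Cdk1, the kinase that drives entry into mitosis, had 6.76, 26.9, 7.70 and 62.9 CPM in that order of plates. Its partner Ccnb2, a B-type cyclin, rested on 20, 13, 1 and 20 counts. Ube2c, the ubiquitin-conjugating enzyme of the anaphase-promoting complex, had 37 counts in BMDM with WBRT, 43 in BMDM without WBRT, 7 in microglia with WBRT and 35 in microglia without WBRT, in 16, 22, 6 and 22 wells. Plk1, Aurka, Aurkb, Bub1, Bub1b and Cdc20, the kinases and checkpoint factors of mitosis, had at most 19 counts on any plate. At this depth 3 counts correspond to 1.19, 2.37, 4.62 and 3.43 CPM. In the ratios between plates described below, their intervals held 1 wherever both plates list the gene, with 1 exception. Bub1b in BMDM over microglia without WBRT was at 0.18 (0.045 to 0.58), on 4 against 15 counts.

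The 13 chromosome and spindle genes summed to 218 CPM in BMDM with WBRT, 282 CPM in BMDM without WBRT, 126 CPM in microglia with WBRT, which lacks Cenpe, and 423 CPM in microglia without WBRT, or 415 CPM over the 12 genes listed on both. Top2a, the topoisomerase that untangles sister chromatids, had 14.3, 49.0, 1.54 and 99.5 CPM, from 36, 62, 1 and 87 counts. The single Top2a count of microglia with WBRT lay in 1 of 151 wells, whereas 36 of 157 wells of microglia without WBRT held at least 1. Mki67, the surface coat protein of mitotic chromosomes used as a proliferation marker, had 33.9 CPM in BMDM with WBRT, 26.1 CPM in BMDM without WBRT and 54.9 CPM in microglia without WBRT, while microglia with WBRT had 13 counts in 5 of 151 wells, against 48 counts in 17 of 157 wells without WBRT. Cenpa, the centromeric histone, had 47.0 CPM in BMDM with WBRT, 22.9 CPM in BMDM without WBRT, 10.8 CPM in microglia with WBRT and 44.6 CPM in microglia without WBRT. Its order of plates therefore differed from that of Top2a.

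Between the microglia plates, most of the 40 genes were lower with WBRT. The 35 genes listed on both summed to 0.48 of the level with WBRT over that without WBRT (exact conditional 95% interval 0.43 to 0.53). Genes were compared when their mean over the plates was at least 10 CPM, which 28 of the 35 reached, and a call was a log2 ratio of CPM + 5 past 2-fold. With WBRT, 17 of the 28 were lower by 2-fold or more and 1 was higher. Of all 7940 genes compared, 6.88% were lower and 7.87% were higher by as much. The median log2 ratio of the 28 genes was -1.12, against 0.05 over all genes compared. Since a gene can pass the filter through its level in microglia without WBRT alone, all 35 were also read without it. Of these, 32 had a ratio below 0, with a median of -1.11, and 22 were past 2-fold lower. The share of all genes without the filter was not computed, so these counts have no such share beside them. On the log2 ratio of CPM + 5, Top2a was lowest at -4.00, then Rrm2 at -3.29 and Mcm7 at -2.56. In CPM without the added 5, Top2a was at 0.0155 of its level without WBRT (0.000388 to 0.0886), Rrm2 at 0.0691 (0.0249 to 0.155) and Mcm7 at 0.136 (0.0659 to 0.253), while Ccnb2, on 1 against 20 counts, was at 0.0674 (0.00163 to 0.421). The 1 gene past 2-fold higher was Tipin, at 3.71, with a lower bound of 1.10.

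Between the microglia plates, the sum of the mitotic genes was at a lower ratio than that of the S phase genes, and Pcna and Slbp made most of that gap. The 20 mitotic genes listed on both summed to 0.28 of the level with WBRT over that without WBRT (0.23 to 0.34), and all 13 that passed the filter had ratios below 0. For the 15 S phase genes the sum was 0.61 (0.54 to 0.69). Without Pcna and Slbp it was 0.33 (0.27 to 0.39) for the other 13, an interval that overlaps the mitotic one, and 0.31 (0.27 to 0.35) for all genes. The median log2 ratio was -1.21 for the mitotic genes, with 8 of 13 called lower, and -1.11 for the S phase genes, with 9 of 15 called lower. The difference between the sets was not tested. Pcna was higher with WBRT at 1.54 (1.23 to 1.93), short of a call, and Slbp was at 1.04 (0.73 to 1.46). The helicase group was at 0.32 (0.25 to 0.41), with 7 of its 9 listed genes past 2-fold lower, and the kinase and cyclin group at 0.23 (0.15 to 0.34). The 2 plates also differed in depth and spike-in share, as given above. Malat1, a nuclear RNA that is low in wells of poor quality or lost nuclei, was under 1000 CPM in 106 of 151 wells with WBRT against 70 of 157 without WBRT. A list of 6 astrocyte genes summed to 910 CPM with WBRT against 101 CPM without WBRT, where Aqp4 and Gja1 have no row. The astrocyte counts lay in few wells: with each well thinned to 1000 counts, 1 of 151 wells with WBRT held 3 or more of them. The sum of the members was at 0.49 with wells of under 25% ERCC counts only and at 0.50 without the wells of low Malat1. The part of depth and of astrocyte RNA in the result was not tested.

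**Figure D2:**
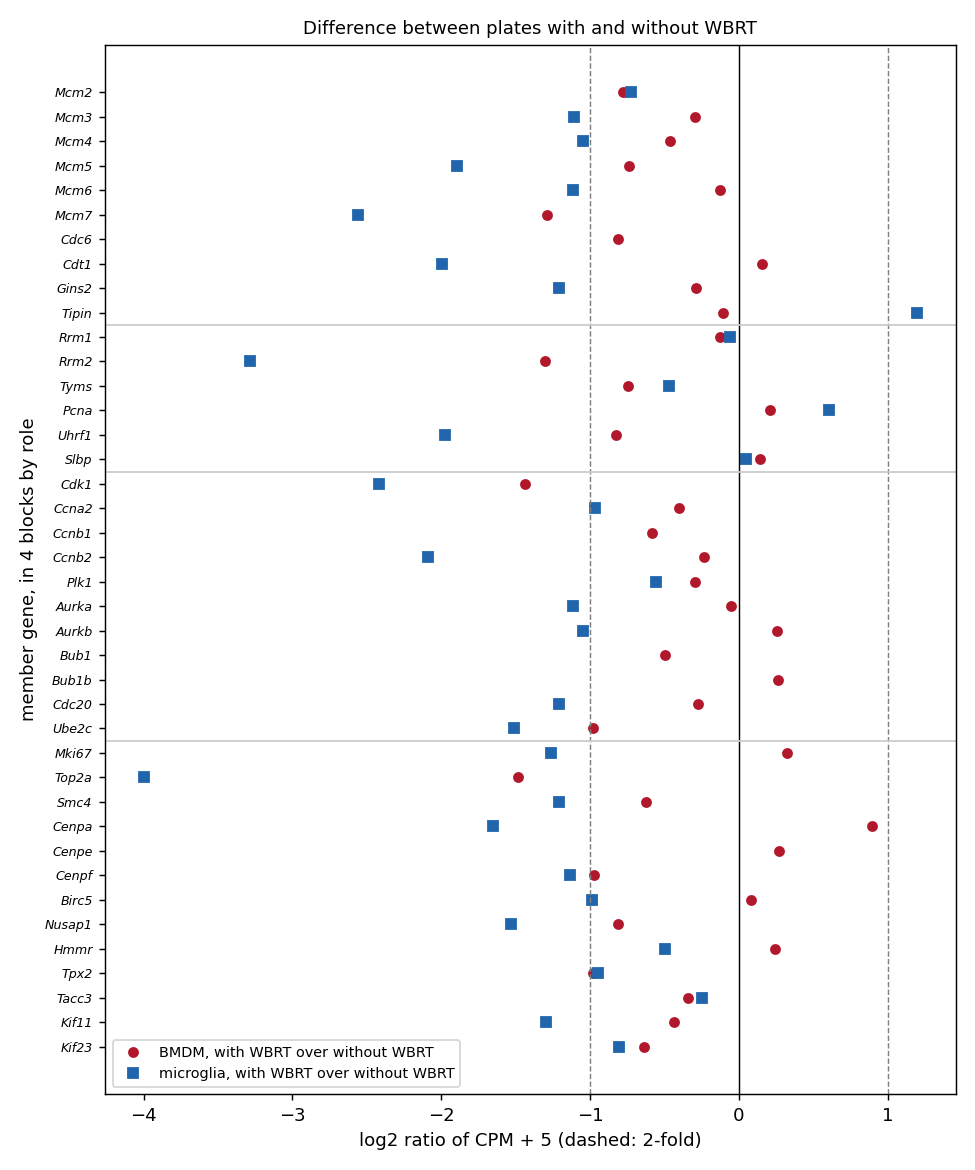
Log2 ratio of CPM + 5 for each of the 40 genes, with WBRT over without WBRT, in BMDM (circles) and microglia (squares), with a line at 0 and dashed lines at 2-fold. The microglia values run down to -4.00 for Top2a, and the BMDM values lie between -1.48 for Top2a and 0.90 for Cenpa.

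Between the BMDM plates the same 40 genes differed less. Their sum with WBRT was 0.79 of that without WBRT (0.73 to 0.85). Of 29 genes that passed the filter, 4 were lower with WBRT by 2-fold or more and 0 were higher, against 5.25% lower and 4.52% higher among all 8071 genes compared. The 4 were Cdk1 at 0.25 (0.13 to 0.46), Top2a at 0.29 (0.19 to 0.45), Mcm7 at 0.34 (0.21 to 0.53) and Rrm2 at 0.20 (0.07 to 0.49). The median log2 ratio was -0.40, against 0.07 over all genes compared. Cenpa stood at the opposite end, at 2.05 with WBRT over without WBRT (1.36 to 3.19), and Mki67 was at 1.30, with a lower bound of 0.86. Cdk1, Top2a, Mcm7 and Rrm2 were also called in microglia, where they were at 0.12, 0.02, 0.14 and 0.07.

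Without WBRT, the genes were lower in BMDM than in microglia. The sum in BMDM was 0.55 of that in microglia (0.51 to 0.60), and 8 of 29 genes were lower by 2-fold or more, against 5.93% of the 7975 genes compared. By the same limit 0 were higher, against 8.61% of these genes. The 8 were the helicase subunits Mcm3, Mcm5 and Mcm7, the loader Cdt1, Rrm2, Uhrf1, Cdk1 and Birc5, the last known as survivin, a subunit of the chromosomal passenger complex. Rrm2 was lowest, at 0.11 (0.06 to 0.18). Top2a was at 0.49 (0.35 to 0.69), just short of a call on the log2 ratio of CPM + 5, and Tpx2, a spindle assembly factor, was at 1.54 (0.85 to 2.92).

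With WBRT, the sums of the 2 sorts did not differ beyond counting error. The level in BMDM over that in microglia was 0.91 (0.82 to 1.01). S phase and mitosis lay on opposite sides: the S phase genes were at 0.73 (0.65 to 0.82) and the mitotic genes at 1.54 (1.26 to 1.89). Without Pcna and Slbp the S phase genes were at 0.79 (0.65 to 0.96), while the sum of all genes was at 1.11 (0.97 to 1.27), on the other side of 1 but with an interval that also holds 1. Of 28 genes, 2 were higher in BMDM by 2-fold or more and 0 were lower, against 7.44% and 6.06% of the 8000 genes compared. The 2 were Cenpa at 4.35 (2.05 to 11.1) and Top2a at 9.30 (1.57 to 377), and the Top2a value stands against a single count. The comparisons of a sort and of WBRT share plates, so their values are set side by side here and were not counted as separate support.

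Genes of the same pathways outside the 40 were read from 5 further lists. Of all genes compared between the microglia plates, 6.88% were lower with WBRT by 2-fold or more and 7.87% were higher. Of 36 other replication genes, 19 passed the filter between the microglia plates, and 10 were lower with WBRT by 2-fold or more and 0 higher, with a median log2 ratio of -1.11. They include Lig1, the ligase that joins Okazaki fragments, at 9.24 CPM with WBRT against 60.6 CPM without WBRT. Of 43 other genes of G2 and mitosis, 13 passed; 8 were lower and 1 was higher, with a median of -1.14. Prc1, which bundles the central spindle, had 1.54 CPM with WBRT against 42.3 CPM without WBRT, while Pttg1, securin, was the higher one, at 46.2 against 19.4 CPM. Of 13 chromatin and tubulin genes, all 13 passed and 4 were lower, Stmn1, Hmgb2, H2afx and Lmnb1, with a median of -0.87.

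Genes that govern entry into the cycle moved in both directions between the microglia plates. Between the microglia plates, 7.87% of all genes compared were higher with WBRT and 6.88% lower, as given above. Of 17 G1 genes, the 13 listed on both plates summed to 687 CPM with WBRT against 437 CPM without WBRT. This sum was at 1.57 (1.37 to 1.81), whereas the median log2 ratio of the 10 genes that passed the filter was -0.06. Of these 10, 3 were higher with WBRT and 4 were lower. The 3 were the D-type cyclins, with Ccnd1 at 378 CPM with WBRT against 90.3 CPM without WBRT, Ccnd2 at 92.5 against 38.9 CPM and Ccnd3 at 12.3 against 3.43 CPM. The 4 were E2f1, E2f2, Cdk2 and Cdc25a, with E2f1, a transcription factor of S phase genes, at 10.8 CPM with WBRT against 34.3 CPM without WBRT. Of 10 cycle inhibitors that passed, 2 were higher with WBRT: Cdkn1a, the p53-induced inhibitor of cyclin-dependent kinases, at 1973 against 927 CPM, and Ccng1, another p53 target, at 120 against 52.6 CPM. In BMDM, Cdkn1a had 1083 CPM with WBRT against 601 CPM without WBRT, which was not past 2-fold, and Ccnd1 had 115 against 229 CPM.

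Between the BMDM plates, 5.25% of all genes compared were lower with WBRT by 2-fold or more and 4.52% were higher. These 5 lists held 9 genes past 2-fold there, all lower with WBRT. They were Lig1, Gins3, Tk1 and Prim1 of 22 replication genes that passed, Ckap2l of 13 genes of mitosis, Lmnb1 of 13 chromatin and tubulin genes, E2f2 and Ccnd2 of 10 G1 genes, and Rbl1 of 10 inhibitors. BMDM over microglia without WBRT gave 5 lower genes of 22 for replication, 6 lower of 13 for mitosis, 0 of 13 for chromatin and tubulin, 3 higher of 10 for G1 and 1 higher of 10 for inhibitors. The same ratio with WBRT gave 1 higher of 19, 1 higher and 1 lower of 13, and 3 higher of 13. For G1 it gave 1 lower of 10 and for inhibitors 1 higher of 10. Of all genes compared for this ratio, 5.93% were lower and 8.61% higher without WBRT. With WBRT the shares were 6.06% lower and 7.44% higher. A single called gene in a list this small lies near such shares.

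The promoters of 33 of the 40 genes are in the RefSeq table of GRCm38.p6 used here. Below are the 250 bases before the transcription start of 1 gene from each role group, shown because these 4 belong to the genes that were lower together in microglia with WBRT. Capitals mark letters of 3 motifs, on either strand: the E2F words TTTCCCGC, TTTCGCGC, TTTGCCGC and TTTGGCGC, the cell cycle homology region TTTGAA, and the CCAAT box, which reads ATTGG on the other strand.
Mcm6 (chr1:128359706-128359955, minus strand): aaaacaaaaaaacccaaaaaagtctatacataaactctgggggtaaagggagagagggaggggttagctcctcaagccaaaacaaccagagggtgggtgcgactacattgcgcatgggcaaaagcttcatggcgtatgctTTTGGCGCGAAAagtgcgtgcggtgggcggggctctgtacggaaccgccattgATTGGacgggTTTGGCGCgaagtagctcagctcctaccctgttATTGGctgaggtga
Rrm2 (chr12:24708004-24708253, plus strand): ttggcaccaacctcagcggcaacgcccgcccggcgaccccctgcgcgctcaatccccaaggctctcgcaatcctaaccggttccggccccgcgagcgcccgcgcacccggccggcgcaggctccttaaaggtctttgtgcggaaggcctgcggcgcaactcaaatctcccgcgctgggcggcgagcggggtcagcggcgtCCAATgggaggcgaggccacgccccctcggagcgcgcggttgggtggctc
Cdk1 (chr10:69352913-69353162, minus strand): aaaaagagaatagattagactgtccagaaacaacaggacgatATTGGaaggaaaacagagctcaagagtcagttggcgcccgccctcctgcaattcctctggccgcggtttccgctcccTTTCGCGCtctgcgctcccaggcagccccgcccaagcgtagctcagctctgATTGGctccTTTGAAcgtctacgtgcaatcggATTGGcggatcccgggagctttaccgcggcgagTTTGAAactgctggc
Top2a (chr11:99024190-99024439, minus strand): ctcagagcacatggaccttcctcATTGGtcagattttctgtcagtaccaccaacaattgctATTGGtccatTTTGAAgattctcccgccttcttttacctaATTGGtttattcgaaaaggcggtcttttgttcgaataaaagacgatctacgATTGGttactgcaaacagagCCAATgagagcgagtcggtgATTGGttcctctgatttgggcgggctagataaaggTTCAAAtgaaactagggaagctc

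The Mcm6 window held 3 E2F words, of which 2 overlap on opposite strands in a single run of capitals, and 2 CCAAT boxes. Rrm2 had 1 CCAAT box and none of the other words. Cdk1 carried all 3 motifs, with 1 E2F word, 2 homology regions and 3 CCAAT boxes, and Top2a had 2 homology regions and 6 CCAAT boxes. Over the 33 promoters, an E2F word stood in 5 of 13 S phase genes and 1 of 20 mitotic genes, against 2.16% of 27025 genes in the table. TTTGAA stood in 1 of 13 S phase genes and 7 of 20 mitotic genes, against 18.3% of all genes. A CCAAT box stood in 10 of 13 and 17 of 20, against 37.5% of all genes. These are matches of letters, not binding sites, and E2F sites of other spelling were not searched.

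Counted by cell, wells rich in these transcripts were most frequent in microglia without WBRT. After each well was thinned to 1000 counts, which makes wells of different depth comparable and left out no well, 11 of 262 wells of BMDM with WBRT held 3 or more counts of the 40 genes (4.20%, exact binomial 95% interval 2.11% to 7.39%). The share was 16 of 234 in BMDM without WBRT (6.84%, 3.96% to 10.9%). It was 15 of 151 in microglia with WBRT (9.93%, 5.67% to 15.9%) and 31 of 157 in microglia without WBRT (19.7%, 13.8% to 26.8%). The intervals of the microglia plates overlap, as do those of the BMDM plates. Without thinning the order changed: the shares were 67.6%, 43.6%, 37.7% and 61.8% in the same order of plates, with BMDM with WBRT, the deepest plate, on top. A further 34, 26, 15 and 22 wells held exactly 2 counts, so the 73 wells with 3 or more are the upper end of a range and not a separate class.

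Wells were also counted by the mitotic and by the S phase genes alone, and in each set the intervals of the microglia plates overlapped. When only the 24 mitotic genes were counted, 3 or more remained in 1.53% of wells of BMDM with WBRT (0.418% to 3.86%), 2.99% of BMDM without WBRT (1.21% to 6.07%), 1.99% of microglia with WBRT (0.412% to 5.70%) and 6.37% of microglia without WBRT (3.10% to 11.4%). With the 16 S phase genes alone, the shares were 1.53%, 2.99%, 7.95% and 10.8%, and with the 14 of them other than Pcna and Slbp 0.382%, 2.14%, 3.97% and 8.28%. For all genes without Pcna and Slbp the shares were 1.91%, 4.70%, 5.30% and 16.6%. The last pair, microglia with WBRT (2.31% to 10.2%) and microglia without WBRT (11.1% to 23.3%), did not overlap. Of the 15 wells of microglia with WBRT, 9 held S phase counts and no mitotic count, and 6 held both. In microglia without WBRT, 19 of the 31 wells held both, 9 held S phase counts only and 3 held mitotic counts only.

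**Figure D3:**
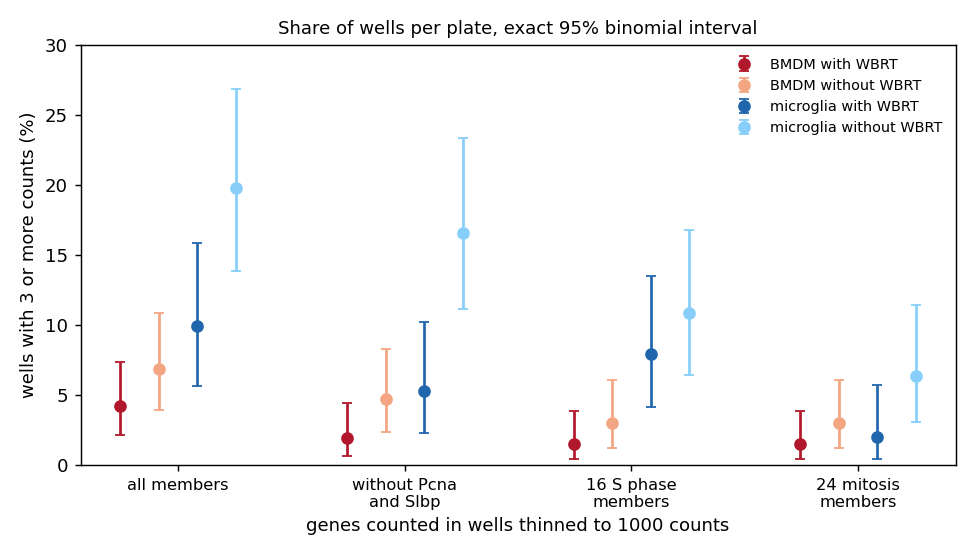
Share of kept wells with 3 or more counts after thinning to 1000, for all 40 genes, for these without Pcna and Slbp, and for the S phase and mitosis genes alone, with exact 95% binomial intervals per plate. Microglia without WBRT have the highest share in each set, 19.7% for all genes and 6.37% for the mitosis genes.

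A few cells carried much of the mitotic signal. The well with most mitotic counts, without thinning, held 146 of 722 in BMDM with WBRT, 84 of 513 in BMDM without WBRT, 30 of 112 in microglia with WBRT and 109 of 588 in microglia without WBRT. In microglia with WBRT the next well had 7, so a single cell held 26.8% of the plate's mitotic counts. That well had 4940 transcripts, 23 of the 35 listed genes, 27 thinned counts of microglia genes and 0 of MHC class II genes. Wells with 10 or more mitotic counts numbered 8, 6, 1 and 13. The shares these make, 3.05%, 2.56%, 0.662% and 8.28%, depend on depth, which was lowest in microglia with WBRT. Without the well richest in the 40 genes on each plate, the sum in microglia with WBRT over that without WBRT was 0.49, and that in BMDM 0.81.

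**Figure D4:**
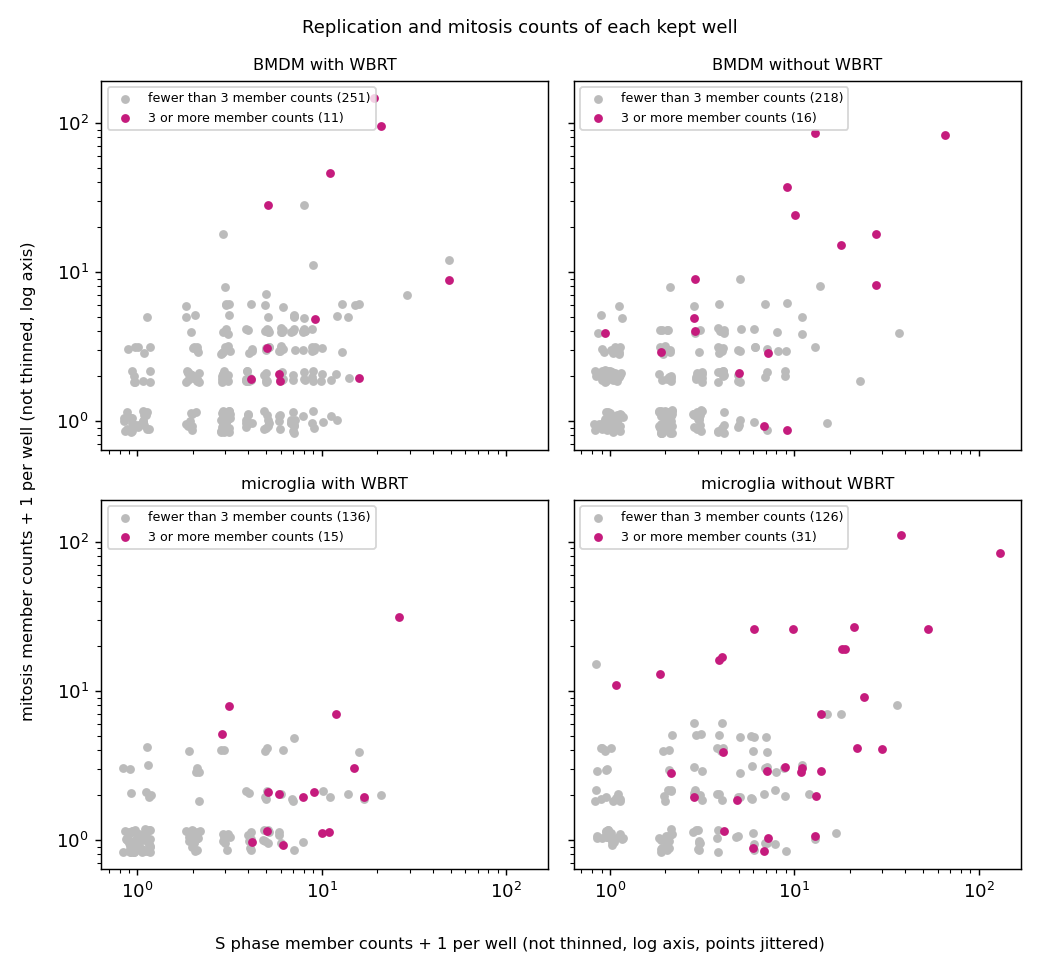
Each kept well by its S phase counts and mitosis counts, not thinned, each plus 1 on log axes, with wells of 3 or more thinned member counts in colour. A single well of microglia with WBRT reaches 30 mitosis counts and the next has 7, while 13 wells of microglia without WBRT have 10 or more.

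The wells with 3 or more counts had depths close to those of the rest. Their median was 9361 transcripts against 8884 in the other wells for BMDM with WBRT, 4596 against 4388 for BMDM without WBRT, 2187 against 2626 for microglia with WBRT and 4835 against 4769 for microglia without WBRT. They held 4.76%, 7.87%, 12.5% and 23.3% of the transcripts and 26.1%, 41.7%, 36.3% and 62.7% of the counts of the 40 genes. The counts of the 40 genes are what chose these wells. Malat1 was under 1000 CPM in 18.2% of these wells against 22.7% of the others in BMDM with WBRT. The shares were 12.5% against 7.80% in BMDM without WBRT, 66.7% against 70.6% in microglia with WBRT, and 51.6% against 42.9% in microglia without WBRT.

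Outside the lists of members, the genes that led these wells belonged mostly to the same machinery. The 2512 genes ranked were those of sufficient level in the wells with 3 or more counts. No level was required in the other wells, so genes could enter through the wells in which they then ranked high. By mean log2 ratio over the 4 plates, the top 10 were Racgap1, Cep55, Ncapd2, 2810417H13Rik, Stmn1, Smc2, H2afx, Hmgb2, Prc1 and Slc43a3. Racgap1, a subunit of the centralspindlin complex, had 117, 100, 24.6 and 147 CPM in these wells, in the order BMDM with WBRT, BMDM without WBRT, microglia with WBRT and microglia without WBRT, and at most 7.10 CPM in the other wells of any plate. Ncapd2 and Smc2 are condensin subunits, and Cep55 and Prc1 act in cytokinesis. In these wells of microglia with WBRT, Prc1 had 0 counts, and Stmn1, which destabilizes microtubules, had 49.2 CPM, against 186 CPM in those of microglia without WBRT. For 2810417H13Rik no kept well of microglia with WBRT held a count. A gene with no row on a plate entered this ranking as 0 there. In the wells with 3 or more counts of microglia with WBRT, 1 count equals 12.3 CPM, so its values rest on few counts. These values describe wells that were chosen by genes of the same program and were not tested.

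In the microglia plates, the wells with 3 or more counts carried microglial identity. Microglia genes outnumbered BMDM genes in 14 of 15 of these wells with WBRT, the remaining well being a tie, and in 31 of 31 without WBRT, against 134 of 136 and 123 of 126 other wells. The microglia list summed to 12666 CPM in the wells with 3 or more counts and 11372 CPM in the others with WBRT, and to 10033 and 10368 CPM without WBRT. P2ry12, a purine receptor of resting microglia, had 299 CPM in these wells against 347 CPM in the others without WBRT. MHC class II genes summed to 935 CPM in these wells of microglia with WBRT against 795 CPM in the others, and to 495 CPM in these wells of microglia without WBRT against 1774 CPM in the others. The median well held 0 thinned MHC class II counts with WBRT and 1 without WBRT, in these wells and in the others alike. At least 3 thinned counts of the 13 listed pan-macrophage genes were found in all 73 wells of the 4 plates.

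In the BMDM plates, these wells were of mixed identity, as were the plates. Microglia genes outnumbered BMDM genes in 5 of 11 wells with WBRT and 6 of 16 without WBRT, against 100 of 251 and 67 of 218 other wells. The medians in the wells with 3 or more counts were 4 microglia and 3 BMDM counts with WBRT, and 3 and 3.5 counts without WBRT. The wells with 10 or more mitotic counts varied widely in MHC class II, the antigen presentation genes. The 8 such wells with WBRT had a median of 7 thinned MHC class II counts (range 3 to 106). The 6 without WBRT had a median of 47 (range 6 to 62). Among these, 0 of 8 wells with WBRT and 4 of 6 without WBRT held 3 or more dendritic cell counts. Of all kept wells, 15 of 262 with WBRT and 88 of 234 without WBRT did so. The richest wells of each plate are given next. With WBRT, the well with 146 mitotic counts held 106 thinned MHC class II counts and 0 microglia counts, while the next, with 94, held 5 MHC class II and 4 microglia counts. Without WBRT, the well with 84 mitotic counts held 45 MHC class II and 9 dendritic cell counts, and the next, with 81, held 6 and 0.

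**Figure D5:**
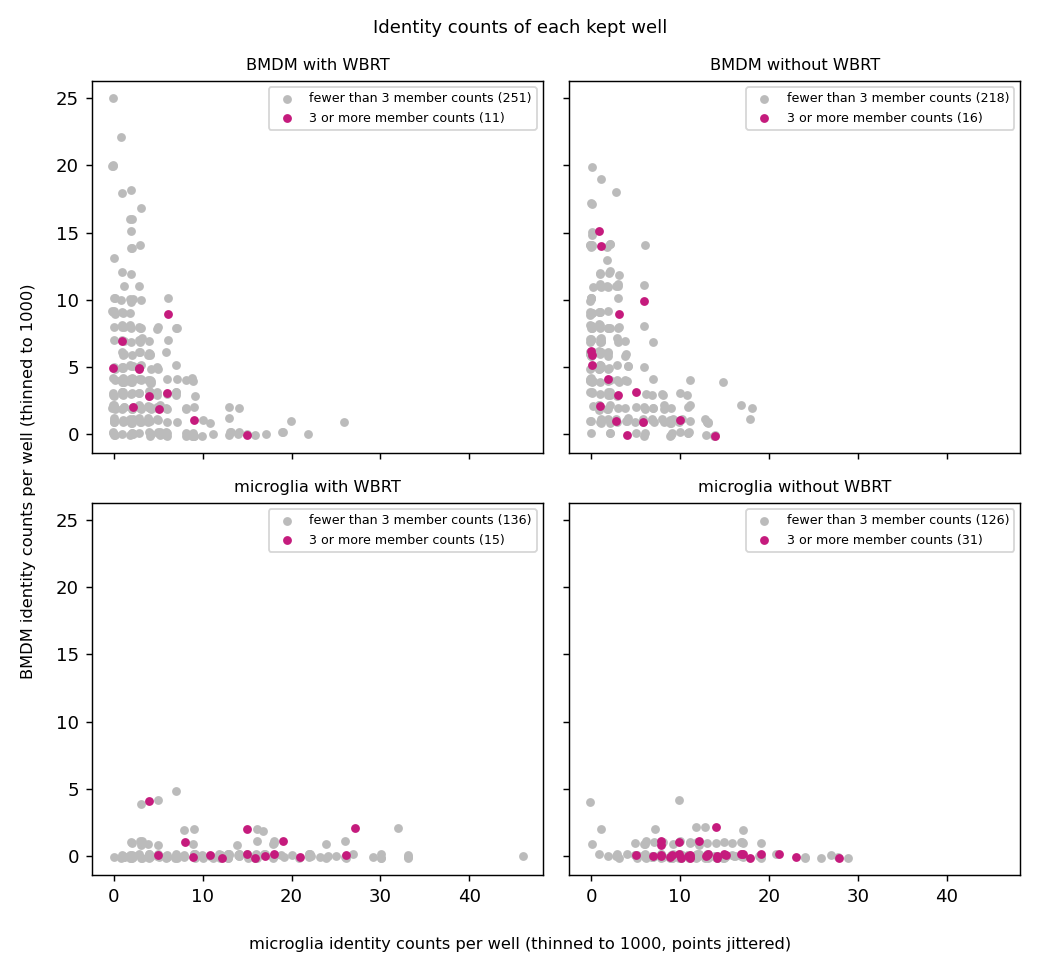
Each kept well by its thinned counts of microglia genes and of BMDM genes, with wells of 3 or more thinned member counts in colour. In the microglia plates these wells lie along the axis of microglia genes with at most 4 BMDM counts, and in the BMDM plates they spread over both axes.

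Dendritic and border-associated profiles were present among these wells of BMDM without WBRT. Of 16 wells, 7 held 3 or more dendritic cell counts (43.8%, 19.8% to 70.1%), against 81 of 218 other wells (37.2%, 30.7% to 43.9%). In BMDM with WBRT these numbers were 0 of 11 and 15 of 251. In microglia with WBRT they were 3 of 15 (4.33% to 48.1%) and 8 of 136 (2.57% to 11.3%), and in microglia without WBRT 1 of 31 and 9 of 126. Border-associated macrophages line the meninges and vessels of the brain, and 4 of the 16 wells of BMDM without WBRT held 3 or more of their counts (interval 7.27% to 52.4%), against 6 of 218 other wells (2.75%, 1.02% to 5.89%). Mrc1, the mannose receptor, had 915 CPM in these 16 wells against 93.5 CPM in the others. In BMDM with WBRT, 5 of 11 wells and 82 of 251 other wells met the same limit. Wells of a plate are not replicates, and these shares were not tested.

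Listed markers of cells outside the macrophage lineage were low in the 73 wells, but many genes of these lists had no row. Of 8 T cell genes, 4 were listed on each BMDM plate and 1 on each microglia plate. Of 7 NK and innate lymphoid genes, 7 were listed in BMDM without WBRT and 1 in microglia with WBRT. Of 6 erythroid genes, 1 was listed in microglia with WBRT and 0 on the other plates. The sums speak only for the listed genes. Lists of T cells, NK and innate lymphoid cells, B and plasma cells, neutrophils and granulocyte progenitors, erythroid cells, neurons, pericytes and fibroblasts, and epithelial cells, which would include tumor cells of lung origin, each summed to at most 40.1 CPM in these wells on any plate. The endothelial list reached 92.0 CPM and the oligodendrocyte list 73.7 CPM. In these wells the plasmacytoid dendritic cell list summed to 217 to 472 CPM, with Ly6d listed on no plate and Spib not in microglia without WBRT. The progenitor list summed to 140 to 332 CPM, with Gata2 listed on no plate and Myb on neither plate with WBRT. Both were of like level in the other wells, at 265 to 364 and 167 to 278 CPM. The astrocyte list stood at 910 CPM on the plate of microglia with WBRT, but at 123 CPM in its wells with 3 or more counts against 1023 CPM in its other wells. These astrocyte counts lay in few wells. After thinning, 1 of the 151 wells held 3 or more of them. At least 1 was found in 2 of the 15 wells rich in the 40 genes and in 18 of the 136 others.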

How the data were processed

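Single-cell transcript counts of 4 plates were used, 1 per group, grouped by the sample titles. The values deposited by the authors are expected counts: estimated numbers of transcripts for each gene in each well, not normalized. From the values, they were corrected for chance repeats among 4096 possible molecular identifiers, to within 0.00499. Per the submitters' processing notes the genome build was GRCm38, and an aligner, a counting tool and an annotation were not given in the sources used here. Every listed row holds at least 1 count, so a gene with no row was treated as not measured. Only in the ranking of genes between wells did such a gene enter as having no counts.

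Wells were kept with at least 1000 counts outside ERCC and mitochondrial rows and an ERCC share under 50%. CPM are a gene's counts over all kept wells of a plate, scaled by the plate's endogenous total with mitochondrial counts included. For shares of wells, observed identifiers outside ERCC and mitochondrial rows were thinned to 1000 per well with a fixed seed. Intervals are at 95%: exact Poisson for levels, exact conditional for folds, computed on counts rounded to whole numbers, and Clopper-Pearson for shares. They cover counting error only. Computations used Python 3.11.15, numpy 2.4.6, scipy 1.17.1 and pandas 2.3.3, and R 4.3.3 with edgeR 4.0.16 and DESeq2 1.42.0 for scaling factors only, and intervals and calls were checked on simulated data. Doublets were not called; each well was taken to hold 1 sorted cell. No test was made, since each group is 1 library.

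Named genes are the 40 members, the genes of 4 role lists, 5 pathway lists, 6 identity lists and 13 lists of other cell types, and the 10 non-member genes with the highest mean log2 ratio of CPM + 5 between wells with 3 or more counts and other wells. The members and lists were chosen with earlier results of these data known. Genes compared between plates had a mean of at least 10 CPM over the plates that list them. Genes ranked between wells were instead chosen by their level in the wells with 3 or more counts. Alternatives changed the well filters, total, scaling, pseudocount, gene filter, thinning and gene set.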

Additional observations from a re-analysis of the deposited data

Results flagged for a closer look

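The wells that were left out for low depth or high ERCC share also held transcripts of the 40 genes, above the level that 3 counts would give. Their pooled level was 617 CPM in 122 wells of BMDM with WBRT (exact Poisson 95% interval 410 to 891, from 28 counts) and 745 CPM in 150 wells of BMDM without WBRT (461 to 1140, from 21 counts). It was 587 CPM in 233 wells of microglia with WBRT (446 to 759, from 58 counts), against 1270 CPM in 227 wells of microglia without WBRT (996 to 1597, from 73 counts). The intervals of the BMDM plates overlap and those of the microglia plates do not. No sample outliers could be looked for, since each group is 1 plate.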

How the results depend on the processing

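No paired analysis was possible because each group is 1 library and no result comes from a test. The ratio of sums kept its side of 1 under all alternatives for 3 comparisons, but for BMDM over microglia with WBRT it crossed 1 without Pcna and Slbp, with both intervals holding 1. The median log2 ratio of that comparison crossed 0 there and without low Malat1 wells. Without thinning, the share of wells in BMDM with WBRT was above that in BMDM without WBRT and in microglia with WBRT, and with thinning below both. Values below run BMDM with WBRT, BMDM without WBRT, microglia with WBRT, microglia without WBRT, or name their comparison with the ratio as given. The cause of each shift was not tested.

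The summed level moved beyond its counting interval as follows. With every well weighted alike it was 651, 770 and 1399 CPM in BMDM with WBRT, BMDM without WBRT and microglia without WBRT. Without the well richest in the 40 genes it was 657, 808, 680 and 1440 CPM. A total without mitochondrial counts, an alternative chosen after seeing the data, gave 776, 1002, 836 and 1831 CPM, and leaving out Pcna and Slbp, chosen likewise, gave 471, 697, 402 and 1382 CPM. BMDM without WBRT had 804 CPM without wells of dendritic cell counts and 825 CPM without wells of low Malat1.

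The sum with WBRT over that without WBRT in BMDM was 0.90 without dendritic wells, 0.89 without low Malat1 wells and 0.68 without Pcna and Slbp. In microglia it was 0.58 with wells weighted alike and 0.31 without Pcna and Slbp; the sum of S phase genes alone moved to 0.33, against 0.61, without these 2 genes, an alternative also chosen after seeing the data. BMDM over microglia without WBRT was 0.47 without dendritic wells, 0.48 without low Malat1 wells and 0.50 without Pcna and Slbp. BMDM over microglia with WBRT was 0.81 with wells weighted alike and 1.11 without Pcna and Slbp, whose interval of 0.97 to 1.27 holds 1, as does that of all members.

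Counts of genes past 2-fold depended on the pseudocount. For WBRT in BMDM the count of 4 became 7 with DESeq2's size factors, 9 with a pseudocount of 1 CPM, 1 with 20 CPM and 7 with the total without mitochondrial counts. For WBRT in microglia the count of 18 became 8 with 20 CPM. For BMDM over microglia without WBRT the count of 8 became 13 without low Malat1 wells, 13 with 1 CPM and 2 with 20 CPM. With WBRT, the count of 2 became 9 with wells weighted alike, 7 without low Malat1 wells, 4 with TMM factors, 8 with 1 CPM and 1 with 20 CPM. Taking rows that are not listed as 0 counts, also added after seeing the data, left these counts at 4, 18, 8 and 2.

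The share of wells was 17.2%, 17.9%, 19.9% and 33.8% at 2 or more counts, and 1.15%, 2.56%, 3.97% and 8.92% at 5 or more. Thinned to 2000 it was 15.4%, 19.9%, 21.1% and 40%, and without thinning 67.6%, 43.6%, 37.7% and 61.8%. With the S phase genes alone it was 1.53%, 2.99% and 10.8% in BMDM with WBRT, BMDM without WBRT and microglia without WBRT, and with the mitosis genes alone 1.53%, 2.99%, 1.99% and 6.37%. Without Pcna and Slbp it was 1.91% in BMDM with WBRT and 5.30% in microglia with WBRT.

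Settings that kept the value within its interval, or a count within 1.5 times, numbered 19 of 36 for the summed level, 19 of 44 for the share, 34 of 44 for the ratio, 51 of 64 for the count and 61 of 64 for the median ratio. Depth limits genes of low level: in microglia with WBRT 3 counts equal 4.62 CPM.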

Other observations

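Transcripts of the list of cycle inhibitors occurred in most wells with 3 or more member counts, as in the other wells. After thinning, at least 1 was found in 7 of 11 such wells of BMDM with WBRT and 16 of 16 of BMDM without WBRT. In microglia with and without WBRT these were 15 of 15 and 29 of 31. Of the other wells, 92.0%, 96.3%, 83.8% and 95.2% held at least 1, in the same order. Pooled levels of single inhibitors differed in direction. Cdkn1a had 2652 CPM in the wells with 3 or more member counts of microglia with WBRT against 1875 CPM in the other wells, and 1142 against 861 CPM in microglia without WBRT. In BMDM without WBRT it had 1107 against 558 CPM, and in BMDM with WBRT 620 against 1106 CPM, the only plate of the 4 with a lower level in these wells. Btg2, an antiproliferative gene, had 721 CPM in the wells with 3 or more counts of BMDM with WBRT against 1365 CPM in the others, and 1658 against 1867 CPM in microglia without WBRT. These are pooled values of single plates with no test.

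Common markers of division shared wells only in part. In microglia without WBRT, Top2a was seen in 22.9% of all 157 wells, in 12 of the 44 wells with Rrm2 (27.3%), in 12 of the 29 with Cdk1 (41.4%) and in 8 of the 17 with Mki67 (47.1%). In BMDM with WBRT, 34 wells held Mki67, more than on the other plates, and 5 of them held Top2a (14.7%, against 6.11% of all wells). In BMDM without WBRT, 8 of the 13 Mki67 wells and 6 of the 8 Rrm2 wells held Top2a, against 28 of all 234 wells. Pcna was seen in 179 of 262 wells of BMDM with WBRT, and in 23 of the 34 wells with Mki67, close to the 68.3% of all wells of that plate. The numbers rise with depth, which was highest in BMDM with WBRT.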
